A study of Sus scrofa with 3 samples.

Results

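The genes described here code for amino acid and peptide transporters of 8 solute carrier families, SLC1, SLC3, SLC6, SLC7, SLC15, SLC36, SLC38 and SLC43. They were chosen by symbol from the gene table, and 50 of its 34570 rows carried such a name. Of these, 44 had at least 1 count and 30 had a mean of at least 1 CPM (counts scaled to library size) over the libraries, the level needed for a comparison; 15472 of all genes reached it. Kidney RNA came from Chinese Wuzhishan pigs, a miniature breed, aged 6 to 7 months, and all pigs ate a diet high in fat and cholesterol. The IM group was intact, the CM group was castrated, and the CMT group was castrated and received testosterone replacement. RNA of 3 pigs was pooled in each group and sequenced as 1 library, so 9 pigs gave 3 libraries and no group has a replicate.

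The proximal tubule reclaims nearly all filtered amino acids and small peptides. Carriers of the brush border, the apical side, bring them into the cell with sodium, protons or in exchange for other amino acids, and carriers of the basolateral side pass them on to the blood. Several SLC7 carriers reach the membrane only when bound to a heavy chain, SLC3A1 on the apical side and SLC3A2 on the basolateral side. Inherited loss of SLC3A1 or SLC7A9 causes cystinuria, loss of SLC6A19 causes Hartnup disorder, and loss of SLC7A7 causes lysinuric protein intolerance.

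Levels are given in CPM. A fold is the ratio of the scaled counts of 2 libraries, followed by its exact 95% interval. Where count ratios of 2 genes are compared between libraries, the 95% interval is a normal approximation instead. These intervals cover counting error only, because reads are not independent molecules and no spread between pigs can be estimated. A gene is called when the interval lies entirely past 2-fold, and a second rule at 1.5-fold shows what lies just short of it. In whole tissue, fewer cells of a type and less RNA per cell cannot be told apart. Counts grow with transcript length, which was not used here, so levels of different genes are not compared.

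The libraries held 16459771 (IM), 18503537 (CM) and 13601475 (CMT) counts. All 17 proximal tubule markers with a row were above the filter, so the tissue label holds. Their summed level was 30940, 30339 and 38490 CPM across IM, CM and CMT. Within these sums PCK1 alone stood at 6824, 5387 and 13703 CPM, so the higher sum in CMT went with this gene. The median log2 fold of the 17 was 0.11 for CM versus IM and 0.07 for CMT versus CM. GGT1 was the only one called lower in CM than IM, against 1.52% of all compared genes. PCK1 and GGT1 were called higher in CMT than CM, against 1.84%. Markers of the thick ascending limb summed to between 7118 and 9389 CPM, of the distal convoluted tubule to between 295.8 and 309.5, of principal cells to between 1248 and 1341, of intercalated cells to between 913 and 1195, of podocytes to between 336 and 403, of endothelium to between 568 and 609, and of stroma and smooth muscle to between 622 and 743. Within these lists, SLC26A4 of intercalated cells stood at 42.3, 10.4 and 29.9 CPM across IM, CM and CMT, called lower in CM than IM and higher in CMT than CM, and TMEM207 of the thick ascending limb, at 9.12, 2.80 and 5.82, was called lower in CM than IM. Their part in the differences of the transporters was not tested. Blood and liver genes were less even. Lymphocyte and plasma cell markers summed to 45.4, 156.4 and 52.0 CPM across IM, CM and CMT, and macrophage and granulocyte markers to 43.2, 60.4 and 70.9. Within the lymphocyte and plasma cell sums, IGJ alone stood at 16.1, 102 and 21.8 CPM. In the same order, red blood cell genes summed to 122, 141 and 182 CPM and adipocyte genes to 30.7, 44.6 and 28.9. Liver genes summed to 167, 73.4 and 130 CPM. Of the 6 compared, ALB, AFP and PLG were called lower in CM than IM, and APOA1 and TTR higher. ALB stood at 118, 1.27 and 30.5 CPM. The 3 genes of the last proximal tubule segment summed to 524, 412 and 778 CPM, mostly ALDH1A1 at 504, 376 and 755. SLC5A1 (18.9, 28.0 and 19.9 CPM) and SLC22A7 (1.09, 8.15 and 2.72) were instead highest in CM. SLC22A7 was called higher in CM than IM and lower in CMT than CM.

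The transporter genes together took 0.412% of the counts in IM, 0.455% in CM and 0.495% in CMT. SLC6A18 alone supplied 29.5%, 37.4% and 45.4% of these transporter counts. Without it the summed level was 2888, 2789 and 2775 CPM, nearly level across the libraries. The sum thus rose along with SLC6A18, while the level remainder held differences in opposite directions. SLC7A7 stood at 408, 690 and 356 CPM across IM, CM and CMT, and SLC38A3 at 299, 137 and 287. Rows with numbered identifiers, such as the one paired with SLC7A8, are not in the sum.

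Few transporter genes differed by more than 2-fold. In CM versus IM, 1 of 30 was called lower, SLC38A3, against 1.52% of all compared genes, and 0 were called higher, against 1.20%. In CMT versus CM, 0 were higher (background 1.84%) and 0 lower (1.11%), and in CMT versus IM, 0 were higher (0.905%) and 0 lower (0.595%). At 1.5-fold, CM versus IM gave SLC7A7 as higher (background 2.81%) and SLC38A3 as lower (3.42%). CMT versus CM gave SLC38A3 and SLC6A13 as higher (3.68%) and SLC7A7 as lower (2.61%). CMT versus IM gave SLC6A18 as higher (2.30%) and 0 as lower (1.44%). With 30 genes, counts of 0 to 2 lie near these backgrounds, and what follows describes single genes.

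Smaller differences were common. Only 10 of the 30 genes (33.3%) lay within 1.25-fold between CM and IM, while 63.2% of all compared genes did. Between CMT and CM the share was 60.0% against 62.8%, and between CMT and IM 63.3% against 67.8%. Some genes outside 1.25-fold between CM and IM, such as SLC15A1 with 17 counts in IM and 26 in CM, had intervals that included 1. The members and all genes were not matched for read depth in these shares or in those below. The interval left out a ratio of 1 for 18 genes in CM versus IM, 7 of them higher and 11 lower, which is 60.0% against 44.4% of all genes. It left out 1 for 15 genes in CMT versus CM, beside 41.7% of all genes, and for 13 (43.3%) in CMT versus IM, beside 35.3%. The median log2 fold of the 30 genes was -0.12 in CM versus IM, -0.01 in CMT versus CM and -0.07 in CMT versus IM, and that of all genes lay between -0.013 and -0.004. Scaled to the proximal tubule markers, the transporter medians were 0.0097 in CM versus IM and -0.14 in CMT versus CM, beside 0.13 and -0.13 for all genes. These comparisons share libraries and are therefore not independent of each other.

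**Figure D1:**
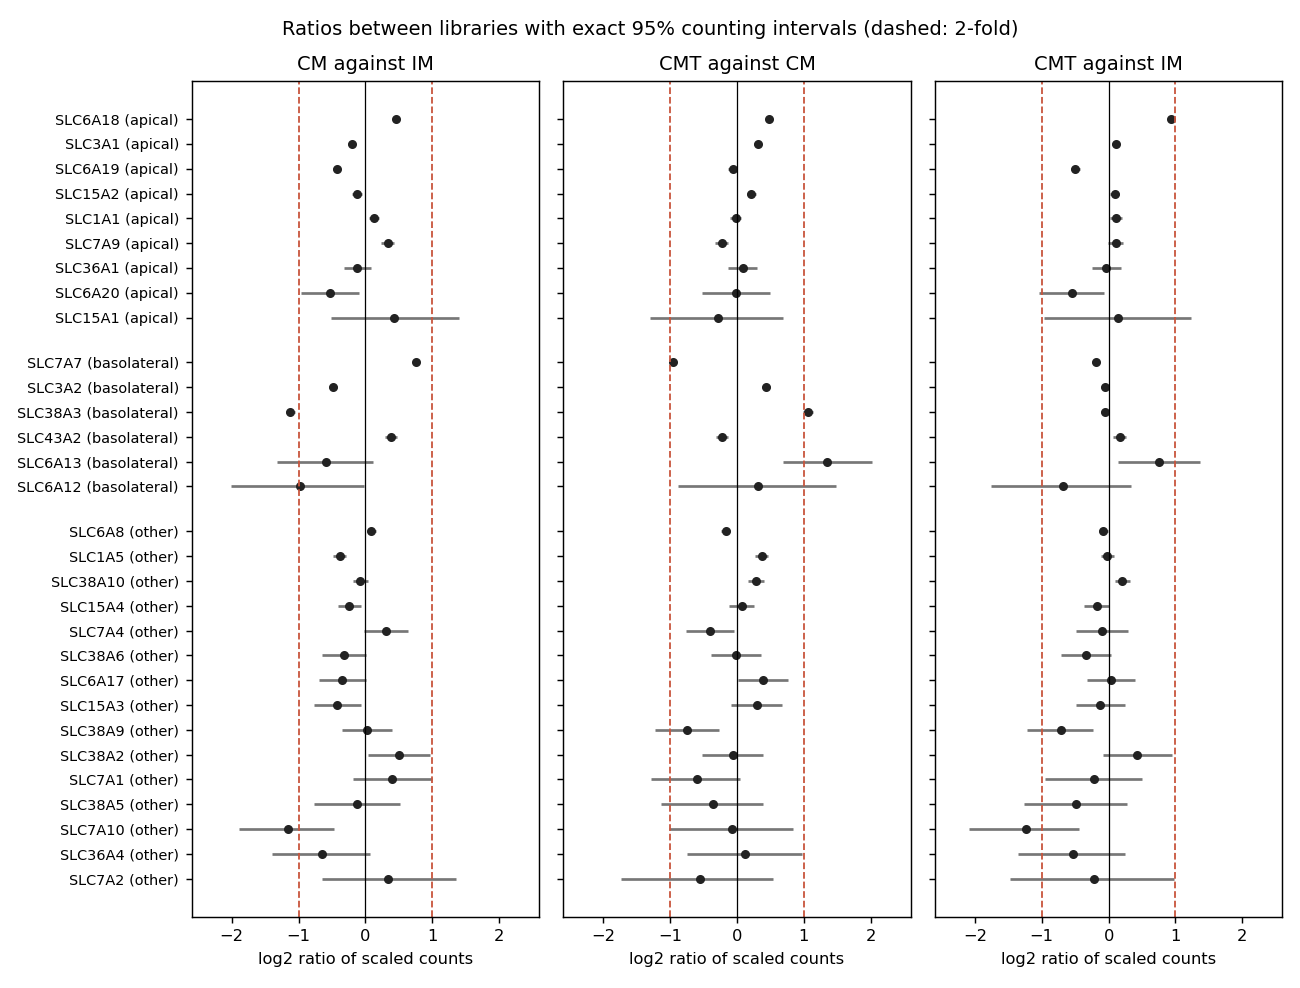
Log2 ratio of scaled counts (x axis) for the 30 compared transporter genes (rows, grouped as apical, basolateral or other), in 3 panels for the 3 comparisons; points are ratios of 1 library to another, horizontal lines exact 95% counting intervals and dashed lines 2-fold. SLC38A3 is the only gene with its whole interval past a dashed line, in CM versus IM; SLC7A7 lies opposite to it in the first 2 panels.

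Of the 4 members that passed the 2-fold or the 1.5-fold rule in a comparison, 3 are on the basolateral list. That list holds 6 of the 30 compared members, and such small numbers cannot compare the sides of the cell. SLC38A3 codes for a sodium-coupled glutamine transporter through which tubule cells take up glutamine for ammonia production. It gave 4954 counts in IM, 2597 in CM and 3800 in CMT, or 299, 137 and 287 CPM. The castrated pool was the low one, and the other two nearly coincided. SLC38A3 was lower in CM than IM by 2.18-fold (2.08 to 2.28). It was higher in CMT than CM by 2.09-fold (1.99 to 2.20), short of the 2-fold rule by its lower bound, and stood at 1.04-fold (0.999 to 1.09) lower in CMT than IM. When the libraries were scaled to the proximal tubule markers, an alternative added after the data were seen, the ratio of CM to IM was 0.504 (0.481 to 0.529) and the 2-fold call was lost. That scaling used the geometric mean of the 16 markers listed by symbol, whose mean log2 fold was -0.14 in CM versus IM, opposite in sign to the median of the 17, with 8 of the 16 below 0.

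SLC7A7 codes for the light chain that, with SLC3A2, exports cationic amino acids such as lysine and arginine in exchange for neutral ones and sodium. It had 6750, 13045 and 4718 counts across IM, CM and CMT, equal to 408, 690 and 356 CPM. Here CM was the high pool. The level was 1.69-fold (1.64 to 1.74) higher in CM than IM and 1.94-fold (1.87 to 2.002) lower in CMT than CM, neither of which met the 2-fold rule. CMT lay 1.14-fold (1.10 to 1.19) below IM. Scaled to the proximal tubule markers, CMT versus CM became a call, with a ratio of 0.472 (0.456 to 0.488). The mean log2 fold of the 16 markers was 0.13 in CMT versus CM, with 7 of the 16 below 0. That mean included PCK1 at 1.35 and GGT1 at 1.23, both called higher, and a scaling without them was not tested.

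SLC7A7 is also known from macrophages and lymphoid cells, and some markers of such cells were highest in CM. Of 9 compared lymphocyte and plasma cell markers, 2 were called higher in CM than IM (background 1.20%), and 3 lower in CMT than CM (1.11%). The 2 were IGJ at 6.31-fold (5.55 to 7.20) and MZB1 at 4.82-fold (2.81 to 8.79). Each of the 9 but CD3E was higher in CM than in both other pools; the T cell gene CD247 stood at 9.91, 23.0 and 8.24 CPM across IM, CM and CMT, CD3D at 1.93, 4.28 and 3.10, and CD3E at 5.38, 4.76 and 5.52. Their summed level, like the level of SLC7A7, was highest in CM, and within that sum IGJ alone stood at 16.1, 102 and 21.8 CPM. Of 6 compared macrophage and granulocyte markers, 0 were called in CM versus IM; CSF1R stood at 13.0, 25.5 and 26.1 CPM and CD163 at 2.17, 1.96 and 2.19. The part of these cells in the SLC7A7 difference was not tested. In the RefSeq assembly Sscrofa11.1, SLC7A7 overlaps OXA1L, whose reads were not analysed here.

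SLC3A2, the CD98 heavy chain that SLC7A7 and other light chains need, followed the direction of SLC38A3. It had 5580, 4553 and 4313 counts across IM, CM and CMT, or 337, 241 and 326 CPM. CM was lower than IM by 1.40-fold (1.35 to 1.46) and CMT was higher than CM by 1.35-fold (1.30 to 1.41), and neither passed a rule. SLC7A7 and its heavy chain thus differed in opposite directions. The count ratio of SLC7A7 to SLC3A2 within a library, which needs no scaling, was 1.21 in IM, 2.87 in CM and 1.09 in CMT. This ratio was 2.37-fold (2.26 to 2.49) higher in CM than IM and 2.62-fold (2.48 to 2.76) lower in CMT than CM.

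SLC7A8, another light chain of SLC3A2, which exchanges neutral amino acids at the basolateral side, was found through its numbered identifier LOC100522330 and falls outside the choice by symbol. It gave 9496 counts in IM, 6095 in CM and 5684 in CMT, or 574, 322 and 429 CPM. CM was the low pool and CMT lay between. SLC7A8 was lower in CM than IM by 1.78-fold (1.72 to 1.84), past 1.5-fold but not past 2-fold, and higher in CMT than CM by 1.33-fold (1.28 to 1.38). Against IM, CMT was 1.34-fold (1.29 to 1.38) lower. The ratio of SLC7A7 to SLC7A8 counts was 0.711, 2.14 and 0.830, which is 3.01-fold (2.88 to 3.15) higher in CM than IM. The ratio of SLC7A8 to its heavy chain SLC3A2 moved less, from 1.70 in IM to 1.34 in CM and 1.32 in CMT.

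The uniporters of the basolateral side also differed in opposite directions. SLC43A2, which carries branched-chain and aromatic amino acids by facilitated diffusion, had 1678, 2509 and 1502 counts across IM, CM and CMT, or 101, 133 and 113 CPM. CM was the highest, by 1.31-fold (1.23 to 1.39) over IM and 1.17-fold (1.10 to 1.25) over CMT. SLC16A10, an aromatic amino acid uniporter of another solute carrier family, had 245, 88 and 113 counts, or 14.8, 4.66 and 8.54 CPM. It was called lower in CM than IM by 3.18-fold (2.48 to 4.10), and its 1.83-fold (1.38 to 2.45) difference between CMT and CM was not called. The count ratio of SLC43A2 to SLC16A10 was 6.85, 28.5 and 13.3 across IM, CM and CMT, and was 4.16-fold (3.24 to 5.35) higher in CM than IM.

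The remaining basolateral genes were near the filter. SLC6A13, a GABA and taurine transporter, gave 41, 31 and 55 counts across IM, CM and CMT, or 2.48, 1.64 and 4.16 CPM. CMT was the highest, 2.53-fold (1.60 to 4.07) above CM and 1.68-fold (1.10 to 2.58) above IM. Its neighbour SLC6A12, a betaine and GABA transporter with 0 genes between them in Sscrofa11.1, gave 26, 15 and 13 counts. SLC6A12 was lower in CM than IM by 1.98-fold (1.01 to 4.02), and its interval between CMT and CM included 1.

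**Figure D2:**
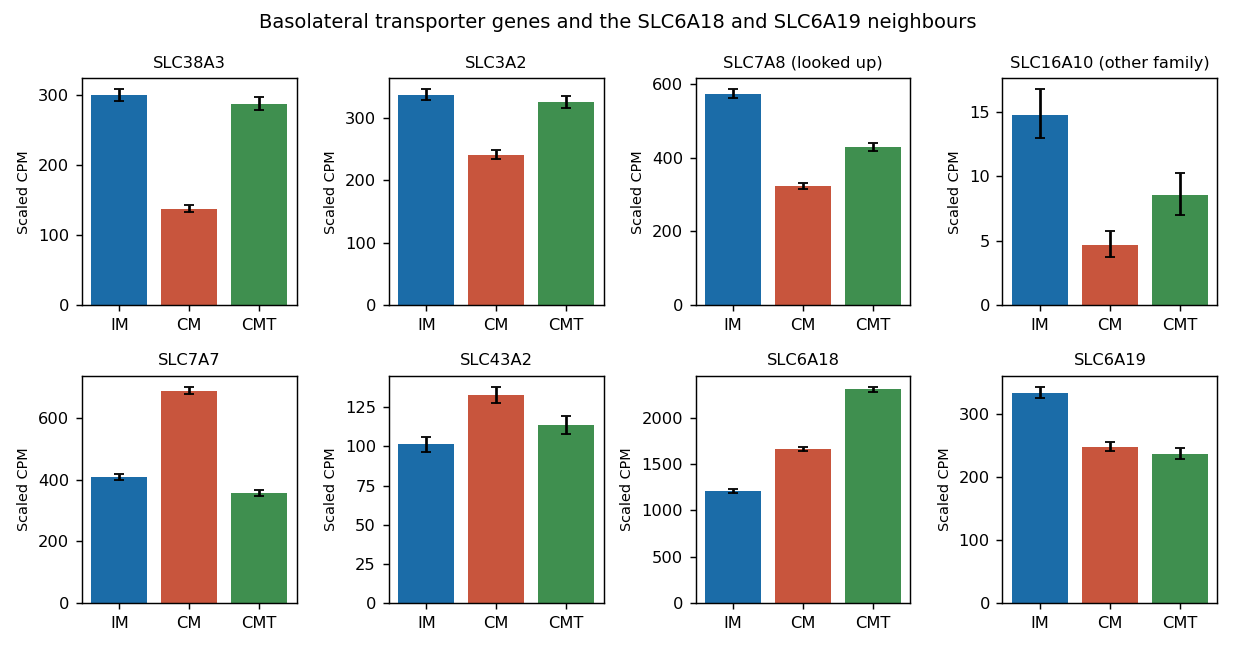
Scaled CPM (y axis, from 0, with its own range in each panel) in the pooled IM, CM and CMT libraries for 8 transporter genes; bars are single libraries and error bars exact Poisson 95% intervals of the count. SLC38A3, SLC3A2, SLC7A8 and SLC16A10 are lowest in CM, SLC7A7 and SLC43A2 highest in CM, and SLC6A18 is highest in CMT while its neighbour SLC6A19 is highest in IM.

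None of the 9 compared apical genes passed the 2-fold rule in any comparison. SLC6A18, a brush border carrier of glycine and other neutral amino acids, had 20013 counts in IM, 31450 in CM and 30532 in CMT, or 1209, 1664 and 2307 CPM. Both castrated pools lay above IM, with CMT the highest. CM was 1.38-fold (1.35 to 1.40) above IM, CMT was 1.39-fold (1.36 to 1.41) above CM, and CMT was 1.91-fold (1.87 to 1.94) above IM. Of the members that passed a rule in any comparison (SLC38A3, SLC7A7, SLC6A13 and SLC6A18), SLC6A18 was the only one in which the differences of CM from IM and of CMT from CM had the same sign.

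SLC6A19, the main brush border carrier of neutral amino acids, lies next to SLC6A18 on chromosome 16 in Sscrofa11.1 with 0 genes between them. Its counts of 5538 in IM, 4686 in CM and 3139 in CMT correspond to 334 CPM, 248 CPM and 237 CPM. IM was the highest, by 1.35-fold (1.30 to 1.40) over CM and 1.41-fold (1.35 to 1.47) over CMT, and CM and CMT could not be separated (1.05-fold, 0.999 to 1.09). The neighbours therefore differed in opposite directions. The count ratio of SLC6A18 to SLC6A19 was 3.61 in IM, 6.71 in CM and 9.73 in CMT. It was 1.86-fold (1.78 to 1.94) higher in CM than IM, 1.45-fold (1.38 to 1.52) higher in CMT than CM and 2.69-fold (2.57 to 2.82) higher in CMT than IM.

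Both carriers reach the kidney brush border together with collectrin, the product of TMEM27. TMEM27 stood at 55.9, 34.1 and 36.7 CPM across IM, CM and CMT, 1.64-fold (1.48 to 1.82) lower in CM than IM, and like SLC6A19 was highest in IM. Of 8 compared genes of such partners, scaffolds and regulators, 0 were called in any comparison, and their median log2 fold was -0.08 in CM versus IM, 0.03 in CMT versus CM and 0.02 in CMT versus IM. SLC6A20, a carrier of proline and other imino acids, gave 104, 82 and 57 counts and, like SLC6A19, was highest in IM, by 1.45-fold (1.07 to 1.96) over CM.

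The cystine transporter is a pair of proteins, the heavy chain SLC3A1 and the light chain SLC7A9, which take up cystine and cationic amino acids. SLC3A1 had 7065, 6996 and 6075 counts across IM, CM and CMT, or 427, 370 and 459 CPM. It was lowest in CM, by 1.15-fold (1.12 to 1.19) versus IM. SLC7A9 had 1544, 2223 and 1327 counts, or 93.3, 118 and 100 CPM, and was highest in CM, by 1.26-fold (1.18 to 1.35) versus IM. The count ratio of SLC7A9 to SLC3A1 was 0.219 in IM, 0.318 in CM and 0.218 in CMT. That ratio was 1.45-fold (1.35 to 1.56) higher in CM than IM and 1.45-fold (1.35 to 1.57) lower in CMT than CM, and CMT and IM could not be separated (1.0005-fold, 0.923 to 1.08). In Sscrofa11.1 SLC3A1 overlaps PREPL, at 28.3, 30.9 and 28.6 CPM, and SLC7A9 overlaps TDRD12, at 0.725, 1.06 and 1.36 CPM. On both sides of the cell a light chain that carries cationic amino acids was higher in CM while its heavy chain was lower.

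**Figure D3:**
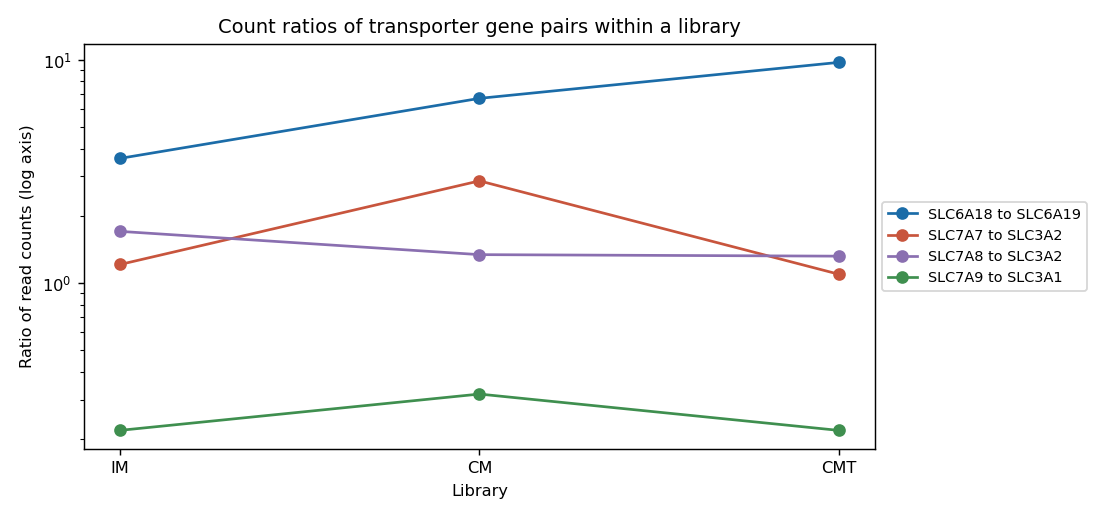
Ratio of the read counts of 2 transporter genes (y axis, log scale) within each pooled library (x axis), for the SLC6A18 and SLC6A19 neighbours and for 3 light chains over their heavy chains; each point is 1 library. The SLC7A7 to SLC3A2 ratio stands at 2.87 in CM against 1.21 and 1.09 in IM and CMT, the SLC7A9 to SLC3A1 ratio has the same shape, and the SLC6A18 to SLC6A19 ratio is highest in CMT at 9.73.

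The apical carriers of glutamate and of peptides differed little. SLC1A1, the apical carrier of glutamate and aspartate, stood at 139, 153 and 151 CPM across IM, CM and CMT, and its 3 folds were between 1.01 and 1.09. SLC15A2, the high-affinity peptide transporter of the proximal tubule, stood at 197, 180 and 209 CPM, with folds between 1.06 and 1.16. SLC15A1, the low-affinity peptide transporter that dominates in the intestine, gave 17, 26 and 15 counts, and all its intervals included 1. SLC36A1, a proton-coupled carrier of small amino acids, stood at 24.6, 22.6 and 24.0 CPM, and its intervals also included 1. SLC36A2, a brush border carrier of glycine and proline in other mammals, had 0 counts in every library.

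Among the other genes, SLC6A8, the creatine transporter, stood at 229, 244 and 217 CPM across IM, CM and CMT, with folds between 1.06 and 1.12. SLC1A5, a glutamine and neutral amino acid exchanger, stood at 114, 87.0 and 112 CPM. Like SLC38A3 it was lowest in CM, by 1.30-fold (1.22 to 1.39) versus IM, and CMT and IM were within 1.01-fold (0.945 to 1.08). SLC38A10 stood at 77.5, 73.4 and 89.5 CPM, with CMT 1.22-fold (1.13 to 1.32) above CM.

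SLC38A9, the lysosomal carrier through which arginine is sensed by the mTORC1 kinase, gave 111, 129 and 54 counts across IM, CM and CMT, or 6.70, 6.82 and 4.08 CPM. CMT was the low pool, 1.67-fold (1.21 to 2.34) below CM and 1.64-fold (1.18 to 2.32) below IM, and neither passed a rule. SLC38A2, a neutral amino acid carrier induced when amino acids are scarce, gave 64, 103 and 69 counts and was 1.41-fold (1.02 to 1.96) higher in CM than IM. SLC7A10, an alanine, serine and cysteine exchanger, gave 53, 27 and 18 counts. It was lower in CM than IM by 2.24-fold (1.38 to 3.71) and in CMT than IM by 2.35-fold (1.36 to 4.27), and these counts were too low for either rule.

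The 3 compared cationic amino acid transporters, SLC7A1, SLC7A2 and SLC7A4, were each highest in CM and lowest in CMT, with 42, 63 and 29 counts for SLC7A1, 16, 23 and 11 for SLC7A2 and 135, 190 and 101 for SLC7A4 across IM, CM and CMT. Only the SLC7A4 interval between CMT and CM left out 1 (1.32-fold lower, 1.03 to 1.69). The lysosomal peptide and histidine carriers SLC15A3 and SLC15A4 were lower in CM than IM, by 1.34-fold (1.05 to 1.71) and 1.18-fold (1.05 to 1.33). Between CMT and CM the intervals of both included 1. For SLC36A4, SLC6A17, SLC38A5 and SLC38A6, the interval between CM and IM included 1.

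**Figure D4:**
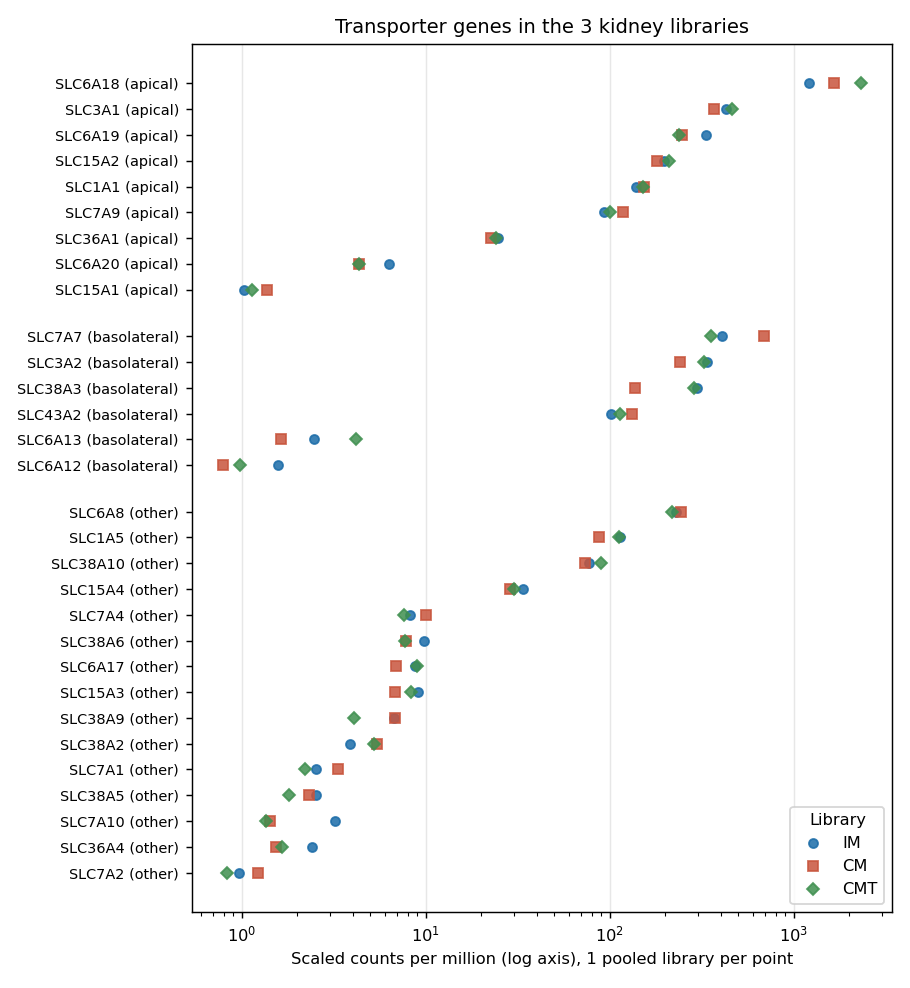
Scaled CPM (x axis, log scale) of the 30 compared transporter genes (rows, grouped as apical, basolateral or other) in the pooled IM, CM and CMT libraries, 1 point per library. For most genes the 3 points lie close together; SLC7A7 in CM and SLC38A3 in CM stand apart from the other pools, and the SLC6A18 points are spread from 1209 to 2307 CPM.

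The other 20 members were too low to compare, with at most 23 counts in any library, and 6 of them had 0 counts in all 3. These 6 were SLC36A2, SLC36A3, SLC15A5, SLC6A5, SLC6A15 and SLC7A14. For such a row, a count of 0 allows up to 3 counts, or 0.181, 0.159 and 0.227 CPM across IM, CM and CMT. The limit holds for the named row alone, since a numbered row paired with SLC6A15 gave 5, 6 and 2 counts. The glutamate carriers of brain, SLC1A2, SLC1A3, SLC1A6 and SLC1A7, together gave 15, 14 and 5 counts across IM, CM and CMT. SLC7A11, the cystine and glutamate exchanger, gave 4, 0 and 8 counts, and a numbered row paired with the same symbol gave 0, 3 and 2. SLC6A7 gave 23, 11 and 11 counts, SLC38A1 gave 22, 14 and 12, and SLC6A2, SLC6A3, SLC6A11, SLC6A14, SLC7A3 and SLC38A4 each gave at most 3 in a library.

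Of 8 further rows whose numbered identifiers the RefSeq table pairs with a symbol of these families, 4 were above the filter. Besides SLC7A8, SLC6A4, the serotonin transporter, gave 29, 18 and 51 counts and was called higher in CMT than CM by 4.05-fold (2.32 to 7.36). A row typed as ncRNA and paired with SLC7A13, a partner of SLC3A1, gave 33, 32 and 17 counts. A row typed as miscRNA, paired with SLC7A5 and listed there as lncRNA, gave 16, 26 and 40 counts and was 3.13-fold (1.71 to 5.98) higher in CMT than IM; its relation to the coding gene was not settled.

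A list drawn up for glutamine use and ammonia production was compared beside the transporters. Of its 16 compared genes, 1 was called lower in CM than IM (background 1.52%) and 0 higher (1.20%). Their median log2 fold was -0.06. The gene called lower was GLUL, glutamine synthetase, which makes glutamine instead of using it. GLUL had 9668, 3816 and 10194 counts across IM, CM and CMT, or 584, 202 and 770 CPM. It was lower in CM than IM by 2.89-fold (2.79 to 3.004) and higher in CMT than CM by 3.82-fold (3.68 to 3.96), in the same directions as SLC38A3. A link between these genes was not tested. PCK1, of gluconeogenesis, was the other gene called higher in CMT than CM (background 1.84%), and 0 were lower (1.11%). GLUD1, glutamate dehydrogenase, stood at 924, 737 and 767 CPM and was not called.

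Among 11 compared amino acid transporters of other families, SLC16A10 was the only one called in CM versus IM, as lower (background 1.52%). The list median log2 fold was -0.26. In CMT versus CM the median was 0.24. SLC25A29, a mitochondrial carrier of basic amino acids, was called higher there (background 1.84%), by 2.20-fold (2.02 to 2.40). It stood at 77.9, 47.2 and 104 CPM across IM, CM and CMT, so that CM was the low pool here too. CTNS, the lysosomal cystine exporter, stood at 18.1, 15.3 and 18.8 CPM and was not called.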

How the data were processed

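Kidney RNA of 3 pools was measured by RNA sequencing, with 1 library per group. The deposited values are raw counts per gene, whole numbers with different totals. FastQC is named in the submitters' processing notes; the sources used here name no aligner, counter, strand setting, build or annotation. Reads of overlapping genes could not be separated, and 11 of the 30 compared transporter genes overlap another gene in Sscrofa11.1. An unnamed column with 4 values was not used.

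Effective library sizes used TMM factors of 1.01 (IM), 1.02 (CM) and 0.973 (CMT) from edgeR 4.0.16 in R 4.3.3, over all genes. Intervals came from the Clopper-Pearson interval of one library's share of a gene's counts (SciPy 1.17.1). Ratios of count ratios are sample odds ratios, with intervals from a normal approximation on the log scale. Log2 folds used a prior count of 2. With 1 library per group no p-value is given. Symbols for 2090 of 19902 numbered identifiers came from RefSeq by gene ID. The procedure was tested on simulated data.

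The members and lists were chosen with earlier results of these data known, and the gene pairs after counts were seen. Named genes were those called, all apical and basolateral members, those past 1.5-fold and those below the filter; the other compared members are named as well, and a few genes are not reported here. The alternatives were 11 planned settings of scaling (DESeq2 1.42.0 size factors among them), filter, fold, level, depth, gene type and membership, and 1 added later.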

Additional observations from a re-analysis of the deposited data

How the results depend on the processing

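The count of transporter genes past the rule followed the threshold. With 1.5-fold in place of 2-fold, 1 was higher in CM against IM, 2 higher and 1 lower in CMT against CM, and 1 higher in CMT against IM; with 3-fold, 0 were lower in CM against IM. Without a filter, 1 was higher in CMT against CM, and with the looked-up rows added 1 was higher there (SLC6A4). Scaling to proximal tubule markers, added after the data were seen, shifted the median log2 fold of all genes to 0.13 in CM against IM and -0.13 in CMT against CM. It gave 0 lower in CM against IM, with a median of 0.0097 for the transporters, and 1 lower in CMT against CM (SLC7A7), with a median of -0.14. These markers include PCK1 and GGT1, both called higher in CMT than CM, and a scaling without them was not tested. The other settings left each count and median as it was, within 1.5 times or 0.1. Of 225 refitted folds of 15 named genes under 5 scalings or depths, 219 kept direction and call, 1 lost a call (SLC38A3), 1 gained one (SLC7A7) and 4 uncalled folds near 1 changed sign. No paired analysis was possible because each group has 1 library. Depth limits the low genes: for SLC7A10, with 53, 27 and 18 counts, a difference of 2.24-fold had an interval from 1.38 to 3.71.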

Other observations

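Enzymes that break down amino acids included larger differences than the transporters did, in single genes. Of all compared genes, 1.52% were called lower and 1.20% higher in CM than in IM. In CMT versus CM, 1.84% were called higher and 1.11% lower. Of 23 compared genes of branched-chain and aromatic amino acid breakdown, 2 were called lower in CM than in IM and the same 2 higher in CMT than in CM, with list medians of -0.06 and -0.10 on the log2 scale. HPD, an enzyme of tyrosine breakdown, stood at 762, 352 and 1017 CPM in IM, CM and CMT, and AADAT, an aminotransferase of the kynurenine and lysine pathways, at 1781, 261 and 2103. Of 16 compared genes of glycine, serine, proline and sulfur amino acid use, CDO1, cysteine dioxygenase, was the only one called; it stood at 21.2, 3.01 and 17.1 CPM, 7.03-fold (5.30 to 9.47) lower in CM than in IM. The comparisons share the CM library.

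A list of peptidases, drawn up for the brush border, had 3 of 16 compared genes called lower in CM than in IM (background 1.52%) and 0 higher (1.20%). GGT1, which splits glutathione, stood at 1140, 552 and 1293 CPM in IM, CM and CMT. LAP3, a leucine aminopeptidase of the cytosol and so not of the brush border, stood at 234, 109 and 232. MEP1B, a subunit of meprin, stood at 74.4, 32.8 and 32.1 CPM, and was lower than in IM in both castrated pools. Of 24 compared amino acid response genes, SHMT2 was called higher (background 1.20%) and MTHFD2 lower (1.52%) in CM than in IM. Both are enzymes of mitochondrial one-carbon metabolism, at 14.6, 40.3 and 17.9 CPM and at 7.19, 2.33 and 7.25 CPM. In CMT versus CM, ATF3 and MTHFD2 of this list were called higher (background 1.84%). PHGDH was called lower there (1.11%), by 2.19-fold (2.08 to 2.31). Among 21 compared genes of mTORC1 and lysosomal amino acid sensing, 0 were called in any comparison.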
